A study of Homo sapiens with 4 samples.

Results

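Synaptic vesicle and exocytosis genes were examined in SK-N-BE(2), a neuroblastoma line of human origin with amplified MYCN. A list of 49 symbols was matched to the Ensembl identifiers of the count table, and each symbol had 1 row among the 64252 gene rows. The tested cells carried an shRNA against IRF2BP2 (sh-IRF2BP2, 2 libraries) and the control cells carried a scramble shRNA (sh-Scb, 2 libraries). The cell line is the shared background of both groups, and per the series text the shRNAs were given by transfection. The labels do not say whether cells were selected, whether 1 or several hairpins were used, or whether replicates were separate cultures, so the p-values cover the spread between these libraries alone. The control columns carry the name NC, left unexplained in the labels, and they were read as the scramble libraries because the other columns are named for IRF2BP2.

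Neurons and chromaffin cells store transmitter in vesicles that are tethered by RAB3 GTPases and active zone scaffolds, made ready for fusion by UNC13 and CADPS priming factors, and fused by the SNARE proteins. Synaptotagmins and DOC2 proteins couple fusion to calcium, and complexins hold the assembled SNAREs until it arrives. Clathrin, dynamin and synaptojanin then take the membrane back. Neuroblastoma arises from the sympathoadrenal lineage, whose cells release catecholamines and peptides by this machinery.

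Total counts lay between 30847699 and 34684651 per library. IRF2BP2, the gene targeted by the shRNA, had 89.6 and 87.5 CPM (the TMM-scaled count relative to library size) in the IRF2BP2 shRNA libraries and 243 and 238 CPM in the scramble libraries, so the target was low in both libraries labelled with its shRNA. All 8 sympathoadrenal markers, TH and CHGA among them, were expressed in each library, and 6 of the 8 were lower and 1, MYCN, was higher with the IRF2BP2 shRNA. Of 7 fibroblast markers 6 were detected at 1 CPM or more in some library, with 2 higher and 4 lower, and their summed level was 283 CPM in each IRF2BP2 shRNA library against 348 and 332 CPM in the scramble libraries. The 6 Schwann cell markers summed to 2.59 to 2.88 CPM in the IRF2BP2 shRNA libraries and 1.99 CPM in each scramble library, with FOXD3 at 0. The 4 endothelial markers summed to 0.874 to 1.28 CPM against 1.01 to 1.07 CPM with scramble, with PECAM1 at 0, and the 4 leukocyte markers to 4.18 to 4.56 CPM against 4.92 to 7.61 CPM, with CD3E at 0. The mitochondrial share of counts was 6.42% in each IRF2BP2 shRNA library and 7.27% and 7.10% in the scramble libraries. The part of these differences in the results below was not tested.

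Most of the exocytosis genes were lower with the IRF2BP2 shRNA. Of the 49 genes, 42 passed the filter on low counts, 32 fell, 4 rose and 6 were not called (edgeR quasi-likelihood test, adjusted p under 0.05 over all 19093 genes tested). Across all genes tested 42.0% were called, 21.4% lower and 20.6% higher, against 85.7% of the tested exocytosis genes called and 76.2% lower. The list was chosen with earlier results of these data known, so these shares describe it and are not independent support. Among 114 other tested genes of the same steps, 30 fell (26.3%) and 31 rose. Falls of over 2-fold were found for 15 of the exocytosis genes (35.7% of those tested), against 6.75% of all genes. Both IRF2BP2 shRNA libraries were below both scramble libraries for 34 of the 42 tested exocytosis genes, against 36.0% of all genes tested. SYT5 and STXBP5 were among the 34 without being called. The median log2 fold change (IRF2BP2 shRNA over scramble) was -0.70 for the tested exocytosis genes and -0.01 for all tested genes. The 32 falls included 8 of less than 1.5-fold, 9 of 1.5-fold to 2-fold and 6 of over 4-fold. SYN3 reached the count limit of the filter in both libraries of the scramble group but not in both of the IRF2BP2 shRNA group. It is counted among the falls of over 2-fold and of over 4-fold. In bulk RNA a lower level per cell and a smaller share of cells that express a gene cannot be told apart.

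**Figure D1:**
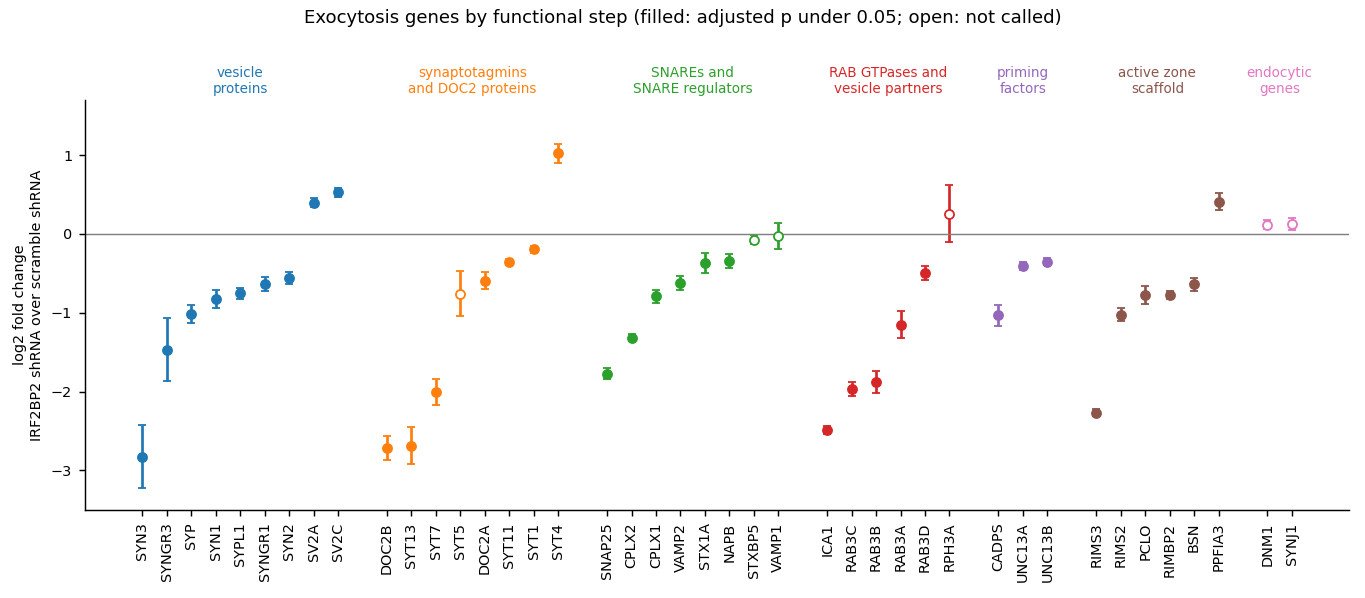
Log2 fold change, IRF2BP2 shRNA over scramble shRNA (y axis, no unit), of the 42 tested exocytosis genes, grouped by functional step along the x axis. Bars are standard errors from the edgeR fit, filled points are called genes and open points are not called. Values reach down to -2.83 (SYN3, which passed the filter only through the scramble group), the largest rise is 1.02 (SYT4), and both endocytic genes lie at 0.12.

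The levels per length showed a change in order among the genes, here as CPM per kilobase of exon, averaged over 2 libraries. In the IRF2BP2 shRNA cells the highest levels were those of SYT11 (25.2), SV2A (16.3), SYT1 (14.0) and CPLX2 (13.7). In the scramble cells they were those of ICA1 (34.9), RIMS3 (34.3), CPLX2 (34.2) and SYT11 (32.3). ICA1 stood at rank 10 and RIMS3 at rank 8 of the 49 genes in the IRF2BP2 shRNA cells, against ranks 1 and 2 in the scramble cells. The exon length of a gene is the union of all its annotated exons, which understates the level of a gene whose cells use a short isoform.

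Promoter sequences are shown for genes at both ends of the response and for SYN1 and UNC13A, whose windows held the left part of the RE1 element. RefSeq start sites were found for 39 of the 49 genes, with 58 windows, each reaching from 250 bases before to 50 bases after the start (build GRCh38.p14). The strings searched on both strands were CACGTG (an E-box bound by MYC proteins), TGACGTCA (the cyclic AMP response element), TGANTCA (AP-1), TTCAGCACC (the left part of RE1, the element bound by the repressor REST) and a longer RE1 string, which begins with that left part and so overlaps it. None of the 5 strings was present in 49 of the 58 windows, and the windows with a match belonged to SYN1, UNC13A, SYP, RAB3B, RIMBP2, RIMS1, ERC2 and SH3GL2. The left part was found in SYN1 and UNC13A, in 2 of 58 windows (3.45%) against 0.376% of all 35116 windows, and the longer string was found in SYN1, against 0.0142% of all windows. TGANTCA stood in 10.3% of the members' windows and 7.71% of all windows, TGACGTCA in 3.45% and 1.85%, and CACGTG in 1.72% and 7.26%. The median GC content was 64.8% for the members' windows and 58.7% for all windows. Below are the 250 bases before each start, 5′ to 3′ on the gene's own minus strand, with strings found in capitals. SYN1 (chrX:47619858-47620107) has the longer RE1 string from -233 to -217 and TGACGTCA from -159 to -152. UNC13A (chr19:17688355-17688604) has CACGTG from -224 to -219, and its left part of RE1, on the opposite strand, lies past the start, from 7 to 15, outside the stretch printed. RIMS3 (chr1:40665683-40665932) and ICA1 (chr7:8262168-8262417), whose calls had the smallest adjusted p among the members, and SYT4 (chr18:43277491-43277740), which rose most, held none of the strings.
SYN1: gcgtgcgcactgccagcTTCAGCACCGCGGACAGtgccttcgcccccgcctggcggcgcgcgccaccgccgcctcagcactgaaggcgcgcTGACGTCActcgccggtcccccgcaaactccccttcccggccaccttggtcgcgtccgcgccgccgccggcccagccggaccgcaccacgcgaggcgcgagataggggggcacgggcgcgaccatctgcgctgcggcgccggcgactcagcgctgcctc
UNC13A: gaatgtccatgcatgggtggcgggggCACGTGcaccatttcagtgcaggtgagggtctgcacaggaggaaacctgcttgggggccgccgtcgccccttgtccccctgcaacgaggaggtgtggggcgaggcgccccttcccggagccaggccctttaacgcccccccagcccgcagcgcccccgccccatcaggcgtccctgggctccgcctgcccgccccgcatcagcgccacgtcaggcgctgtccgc
RIMS3: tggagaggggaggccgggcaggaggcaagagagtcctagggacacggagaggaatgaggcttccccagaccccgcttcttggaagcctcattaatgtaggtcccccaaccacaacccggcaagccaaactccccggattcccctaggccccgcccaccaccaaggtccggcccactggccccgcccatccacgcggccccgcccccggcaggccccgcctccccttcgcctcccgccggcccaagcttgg
ICA1: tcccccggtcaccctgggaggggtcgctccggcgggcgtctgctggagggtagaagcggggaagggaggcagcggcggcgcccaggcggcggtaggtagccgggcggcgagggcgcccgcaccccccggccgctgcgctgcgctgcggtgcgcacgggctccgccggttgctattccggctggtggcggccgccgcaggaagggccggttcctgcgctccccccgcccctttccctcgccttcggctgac
SYT4: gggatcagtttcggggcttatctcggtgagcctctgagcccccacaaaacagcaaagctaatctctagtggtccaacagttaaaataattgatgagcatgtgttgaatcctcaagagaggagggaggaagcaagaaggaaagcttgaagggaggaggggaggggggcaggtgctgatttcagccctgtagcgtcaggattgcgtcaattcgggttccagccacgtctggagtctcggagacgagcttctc
A match is a string of letters and was not measured as a bound site.

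Vesicle proteins were mostly lower, with 2 exceptions in the SV2 family. Of 10 genes 9 were tested, 7 fell (77.8%, against 21.4% of all genes tested) and 2 rose (median log2 fold change -0.75). SYP, encoding synaptophysin, an abundant membrane protein of synaptic vesicles, had 22.3 and 28.5 CPM in the IRF2BP2 shRNA libraries and 48.9 and 53.7 CPM in the scramble libraries. Both IRF2BP2 shRNA libraries were lower, the groups did not overlap, and SYP was 2.02-fold lower (log2 fold change -1.01, standard error 0.12, adjusted p = 1.94e-04). SYPL1, a relative of synaptophysin found in many tissues and the vesicle gene with the highest level per length in the scramble cells, had 30.4 and 30.2 CPM against 50.5 and 51.8 CPM with scramble. It was 1.69-fold lower, without overlap. SYNGR3 encodes a synaptogyrin, a vesicle protein with several membrane spans, and had 1.03 and 0.437 CPM in the IRF2BP2 shRNA libraries against 2.16 and 1.92 CPM in the scramble libraries. Its fall rested on few counts (33 and 14 against 75 and 59). SYNGR3 was no longer called when IRF2BP2 shRNA replicate 2 was left out (log2 fold change -0.98, adjusted p = 0.0842), and its log2 fold change was -2.21 when IRF2BP2 shRNA replicate 1 was left out (adjusted p = 0.00176). SYNGR1, a second synaptogyrin gene, fell 1.56-fold.

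The synapsins, which tie vesicles into the reserve pool, fell in SYN1 and SYN2, and SYN3 was near the count limit in the IRF2BP2 shRNA cells. SYN2, which made up most of the family's level per length, had 34.5 and 35.9 CPM in the IRF2BP2 shRNA libraries and 53.7 and 50.05 CPM in the scramble libraries (1.47-fold lower, adjusted p = 6.69e-05). SYN1, which shares 23 exon bases with ARAF on the other strand, had 10.4 and 9.27 CPM against 17.3 and 17.6 CPM with scramble, and was 1.77-fold lower. SYN3 had 10 and 8 counts in the IRF2BP2 shRNA libraries and 80 and 53 counts in the scramble libraries, a log2 fold change of -2.83 (standard error 0.40). It entered the test only through the scramble group, where it was high, so its call is counted but gives no support of its own. The libraries of the groups did not overlap for SYN1 or SYN2. The summed level of the synapsins was 8.85 and 8.79 CPM per kilobase in the IRF2BP2 shRNA libraries and 14.4 and 13.7 in the scramble libraries.

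SV2A and SV2C, transporter-like glycoproteins of the vesicle membrane, rose. SV2A, the binding site of the antiseizure drug levetiracetam, had 80.6 and 76.9 CPM in the IRF2BP2 shRNA libraries and 58.7 and 61.0 CPM in the scramble libraries (log2 fold change 0.40, standard error 0.05, adjusted p = 1.08e-04). SV2C had 67.9 and 64.5 CPM against 44.6 and 47.4 CPM with scramble (log2 fold change 0.53, standard error 0.06, adjusted p = 4.10e-05). For both genes each IRF2BP2 shRNA library was above each scramble library. SV2B had no count in any library. The 2 expressed paralogs rose by similar factors, and SV2A held 74.8% of the family's level per length in the IRF2BP2 shRNA cells and 76.4% in the scramble cells.

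Synaptotagmins and DOC2 proteins showed steep falls as well as the largest rise among the exocytosis genes. All 8 genes were tested, and 6 fell, 1 rose and 1 was left uncalled (median log2 fold change -0.68). Falls made up 75% of this step, against 21.4% of all genes tested. DOC2B, a calcium sensor with high affinity, had 3.69 and 2.97 CPM in the IRF2BP2 shRNA libraries and 20.3 and 23.4 CPM in the scramble libraries. It was 6.56-fold lower (log2 fold change -2.71, standard error 0.15, adjusted p = 9.68e-08), and the groups were far apart. DOC2A had 18.1 and 15.3 CPM against 26.6 and 23.9 CPM with scramble, a smaller fall of 1.51-fold without overlap. DOC2A held 83.5% of the pair's level per length in the IRF2BP2 shRNA cells and 53.7% in the scramble cells. Reads of DOC2A cannot be separated by strand from those of INO80E, which shares 285 exon bases with it and had a mean count of 2785 against 682 for DOC2A.

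SYT13, an unusual synaptotagmin that does not bind calcium, had 1.44 and 0.999 CPM in the IRF2BP2 shRNA libraries and 8.35 and 7.35 CPM in the scramble libraries (6.43-fold lower, adjusted p = 3.80e-06). SYT7, a slow sensor of high affinity that also acts on dense-core granules, had 2.84 and 2.75 CPM against 11.7 and 10.8 CPM with scramble (4.01-fold lower, adjusted p = 2.40e-06). Both genes were low in both IRF2BP2 shRNA libraries. SYT4, a synaptotagmin of peptide vesicles and an activity-induced gene in neurons, went the other way, with 17.3 and 17.9 CPM in the IRF2BP2 shRNA libraries and 8.15 and 9.14 CPM in the scramble libraries. Its level was 2.03-fold higher without overlap (log2 fold change 1.02, standard error 0.12, adjusted p = 3.62e-05), and among all genes tested 2.95% rose by over 2-fold.

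The abundant synaptotagmins changed little. SYT11, a synaptotagmin without calcium binding and the family's largest part by level per length, had 134 and 131 CPM in the IRF2BP2 shRNA libraries and 174 and 164 CPM in the scramble libraries, a fall of 1.28-fold. SYT1, the fast calcium sensor of synchronous release, had 88.7 and 93.2 CPM against 105 and 103 CPM with scramble. SYT1 fell 1.14-fold (adjusted p = 0.00415), and was no longer called when IRF2BP2 shRNA replicate 1 was left out (adjusted p = 0.067, against 0.00421 at lowest with another library left out). SYT5 had 1.25 and 1.53 CPM in the IRF2BP2 shRNA libraries and 2.22 and 2.51 CPM in the scramble libraries and lay just outside the threshold (log2 fold change -0.76, adjusted p = 0.0524). With upper quartile scaling SYT5 passed it (adjusted p = 0.0411), while leaving out a library gave 0.0736 to 0.23. The share of SYT4 in the summed level of the 6 synaptotagmins was 8.96% in the IRF2BP2 shRNA cells and 3.61% in the scramble cells.

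**Figure D2:**
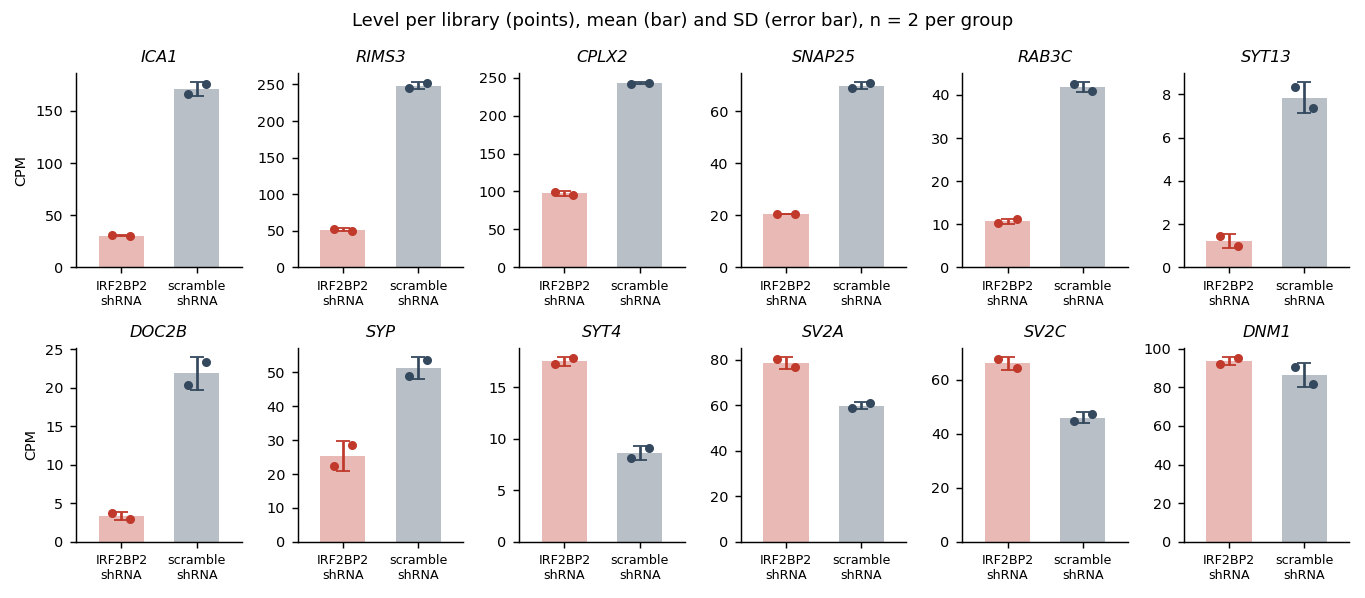
Level in CPM (y axes, from 0) of 12 exocytosis genes in the 2 IRF2BP2 shRNA libraries and the 2 scramble libraries. Points are libraries, bars are means and error bars are SD (n = 2). ICA1, RIMS3, CPLX2, SNAP25, RAB3C, SYT13, DOC2B and SYP are lower with the IRF2BP2 shRNA, SYT4, SV2A and SV2C are higher, and DNM1 was not called.

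The SNARE genes fell to unequal degrees. All 8 SNAREs and SNARE regulators were tested, and 6 fell, none rose and 2 stayed uncalled (median log2 fold change -0.50). The share of falls was 75%, against 21.4% of all genes tested. SNAP25, the plasma membrane SNARE of neurons (chromosome 20, 10218830 to 10307418), had 20.4 CPM in each IRF2BP2 shRNA library and 68.8 and 70.7 CPM in the scramble libraries. It was 3.42-fold lower (standard error of the log2 value 0.07, adjusted p = 6.31e-09). VAMP2, the vesicle SNARE synaptobrevin that pairs with SNAP25, had 14.7 and 15.9 CPM against 23.7 and 23.4 CPM with scramble, a 1.54-fold fall. STX1A, the third partner, had 10.8 and 10.6 CPM in the IRF2BP2 shRNA libraries and 13.0 and 14.6 CPM in the scramble libraries (1.29-fold lower, adjusted p = 0.0299). All 3 core SNAREs were lower without overlap between groups, as were 36.0% of all genes tested. The STX1A call was the least firm of the 3. It was lost with DESeq2 (adjusted p = 0.107), with no filter on low counts (0.0586), and without IRF2BP2 shRNA replicate 1 (0.0937), IRF2BP2 shRNA replicate 2 (0.119) or scramble replicate 2 (0.161), and was kept without scramble replicate 1 (0.0248). STX1A also shares 662 exon bases with BUD23 on the opposite strand, which had a mean count of 2856 against 396 for STX1A. VAMP1, the paralog of VAMP2, which shares 339 exon bases with TAPBPL on the opposite strand, had 6.03 and 6.21 CPM against 5.87 and 6.57 CPM with scramble, overlapping between groups (adjusted p = 0.931).

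Complexins, which clamp and then promote SNARE fusion, fell in both genes. CPLX2 had 99.6 and 95.3 CPM in the IRF2BP2 shRNA libraries and 242 and 243 CPM in the scramble libraries. It was 2.49-fold lower (log2 fold change -1.32, standard error 0.04, adjusted p = 1.33e-09), and CPLX2 had the highest level per length of the SNARE group in both conditions. CPLX1 had 19.0 and 18.9 CPM against 32.3 and 33.3 CPM with scramble (1.73-fold lower, adjusted p = 1.15e-05). Neither gene overlapped between groups, and the summed complexin level was 21.9 and 21.2 CPM per kilobase with the IRF2BP2 shRNA against 47.4 and 48.0 with scramble. STXBP5, or tomosyn, an inhibitor of SNARE assembly, had 63.4 and 60.0 CPM in the IRF2BP2 shRNA libraries and 65.7 and 64.0 CPM in the scramble libraries and was not called (adjusted p = 0.344). NAPB, the neuronal SNAP adaptor that recruits NSF to pull SNAREs apart, had 19.8 and 20.5 CPM against 26.6 and 24.5 CPM with scramble. NAPB fell 1.27-fold (adjusted p = 0.00766), and lost its call when IRF2BP2 shRNA replicate 1 (adjusted p = 0.06) or scramble replicate 1 (0.0588) was left out, the lowest value with a library left out being 0.00832.

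The step of the RAB3 genes, ICA1 and RPH3A had the lowest median of the 7 steps (log2 fold change -1.51). Of its 6 genes, all tested, 5 fell (83.3%, against 21.4% of all genes tested) and 1 was not called. RAB3A, RAB3B, RAB3C and RAB3D encode small GTPases that bring vesicles to the release site. RAB3C had 10.3 and 11.1 CPM in the IRF2BP2 shRNA libraries and 42.5 and 40.9 CPM in the scramble libraries (3.90-fold lower, log2 standard error 0.09, adjusted p = 1.87e-08). RAB3B had 4.66 and 4.40 CPM against 16.2 and 17.2 CPM with scramble (3.68-fold lower). Both were low in each IRF2BP2 shRNA library. RAB3A, the main isoform of brain synapses, had 3.97 and 4.62 CPM in the IRF2BP2 shRNA libraries against 8.90 and 10.2 CPM with scramble. It fell 2.22-fold. MPV17L2, which shares 165 exon bases with it on the other strand, had a mean count of 784 against 224 for RAB3A. RAB3D, known from secretory granules of exocrine cells, had 17.6 and 17.5 CPM against 24.1 and 25.4 CPM with scramble, a 1.41-fold fall. TMEM205, which shares 144 exon bases with it on the same strand, had a mean count of 1264 against 685.5 for RAB3D. RAB3D made up 51.0% of the family's level per length in the IRF2BP2 shRNA cells and 34.0% in the scramble cells, while the summed level was 7.59 and 8.01 CPM per kilobase against 16.0 and 16.9.

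ICA1, a protein with a BAR domain on secretory granules that binds the GTPase RAB2, lies on chromosome 7 from 8113184 to 8262687 (GRCh38). ICA1 had 30.6 and 30.3 CPM in the IRF2BP2 shRNA libraries and 166 and 175 CPM in the scramble libraries. It was 5.61-fold lower (log2 fold change -2.49, standard error 0.05, adjusted p = 3.14e-11), and the 2 groups were widely separated. ICA1 shares 157 exon bases with ICA1-AS1 on the opposite strand, which had a mean count of 67.5 against 3279 for ICA1. RPH3A, the RAB3 effector rabphilin, had 1.19 and 0.968 CPM with the IRF2BP2 shRNA and 0.864 and 0.944 CPM with scramble and was not called (adjusted p = 0.618).

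Of 4 priming factor genes 3 were tested and all 3 fell, where 21.4% of all genes tested fell. CADPS, which primes dense-core vesicles, had 6.78 and 6.96 CPM in the IRF2BP2 shRNA libraries and 14.8 and 13.3 CPM in the scramble libraries (2.05-fold lower, adjusted p = 7.64e-05). UNC13A, the main priming factor of glutamate synapses, had 72.0 and 76.6 CPM against 93.7 and 103 CPM with scramble (1.33-fold lower, adjusted p = 1.49e-04). UNC13B had 73.0 and 74.8 CPM against 96.4 and 92.5 CPM with scramble (1.28-fold lower). No gene of the 3 overlapped between groups. UNC13A and UNC13B kept close to the same proportions, UNC13A being 61.7% of the pair's level per length with the IRF2BP2 shRNA and 62.5% with scramble. CADPS2 had no count in any library.

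Of 9 active zone scaffold genes 6 were tested, 5 fell (83.3%, against 21.4% of all genes tested) and 1 rose. The median log2 fold change of the step was -0.77. RIMS3 encodes RIM3, a short RIM protein made of the C-terminal C2 domain, on chromosome 1 from 40620679 to 40665657. RIMS3 had 52.9 and 50.4 CPM in the IRF2BP2 shRNA libraries and 245 and 251 CPM in the scramble libraries. It was 4.81-fold lower (log2 fold change -2.27, standard error 0.04, adjusted p = 3.14e-11), with no overlap. RIMS2, a long RIM that recruits calcium channels and UNC13 to the release site, had 16.8 and 17.4 CPM against 36.0 and 33.6 CPM with scramble (2.04-fold lower, adjusted p = 2.07e-06). RIMS1 had 4 and 2 counts in the IRF2BP2 shRNA libraries and 6 and 8 counts in the scramble libraries and was below the filter. The summed level of RIMS1, RIMS2 and RIMS3 was 8.56 and 8.24 CPM per kilobase with the IRF2BP2 shRNA and 36.6 and 37.2 with scramble. RIMS3 supplied 84.9% of that sum with the IRF2BP2 shRNA and 93.0% with scramble. The sum leaves out RIMS4, which is not on the list. RIMS4 had 3.99 CPM per kilobase with the IRF2BP2 shRNA and 6.25 with scramble, more than RIMS2 in both groups.

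PCLO and BSN encode piccolo and bassoon, giant scaffold proteins of the active zone. PCLO had 14.9 and 12.7 CPM in the IRF2BP2 shRNA libraries and 25.5 and 21.7 CPM in the scramble libraries (1.71-fold lower). BSN had 19.4 and 19.6 CPM against 29.9 and 31.0 CPM with scramble (1.56-fold lower). RIMBP2, which links RIMs to calcium channels, had 52.1 and 52.7 CPM against 90.3 and 88.3 CPM with scramble (1.71-fold lower, adjusted p = 3.78e-07). These 3 scaffold genes were thus lower in each IRF2BP2 shRNA library. PPFIA3, a liprin-alpha, rose, with 23.6 and 22.2 CPM in the IRF2BP2 shRNA libraries and 18.8 and 15.6 CPM in the scramble libraries (log2 fold change 0.41, standard error 0.11, adjusted p = 0.00880). PPFIA3 lost its call when IRF2BP2 shRNA replicate 1 (adjusted p = 0.0593) or scramble replicate 2 (0.0605) was left out, the lowest value with a library left out being 8.62e-04. PPFIA2 had no count in any library, and ERC2 had 0 and 2 counts against 7 and 4 with scramble.

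**Figure D3:**
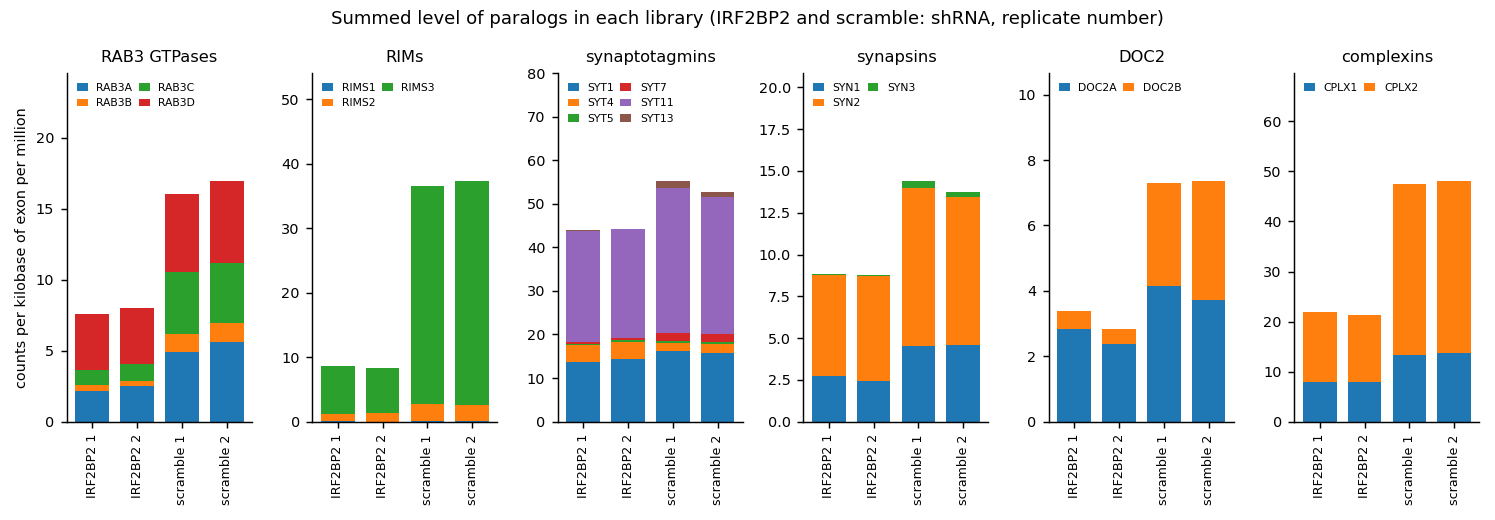
Summed level of 6 paralog families in each library, in CPM per kilobase of exon (y axes, from 0), with 1 colour per gene and the 2 IRF2BP2 shRNA libraries left of the 2 scramble libraries. Each family holds only its genes on the list, so RIMS4 and CPLX3, for instance, are left out. The sum of RIMS1, RIMS2 and RIMS3 is 8.56 and 8.24 with the IRF2BP2 shRNA and 36.6 and 37.2 with scramble. RAB3D takes a larger share of the RAB3 sum with the IRF2BP2 shRNA.

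Of 4 endocytic genes 2 were tested, and neither was called. Of all genes tested 42.0% were called, so 2 uncalled genes say little about the step. DNM1, the dynamin that cuts vesicles from the membrane in neurons, had 92.2 and 95.2 CPM in the IRF2BP2 shRNA libraries and 90.7 and 81.9 CPM in the scramble libraries (log2 fold change 0.12, standard error 0.05, adjusted p = 0.0986). DNM1 passed the threshold without scramble replicate 1 (log2 fold change 0.20, adjusted p = 0.00709), the highest value with a library left out being 0.488. It shares 46 exon bases with CIZ1 on the opposite strand. SYNJ1, the lipid phosphatase synaptojanin that strips clathrin coats, had 25.8 and 25.2 CPM against 23.2 and 23.5 CPM with scramble (log2 fold change 0.12, standard error 0.08, adjusted p = 0.247). For both genes the 2 IRF2BP2 shRNA libraries were slightly above both scramble libraries, as was the case for 34.4% of all genes tested. AMPH had 9 counts in each IRF2BP2 shRNA library and 8 in each scramble library, and SH3GL2, or endophilin A1, had 0 counts in both IRF2BP2 shRNA libraries and 5 and 2 counts with scramble. Both were below the filter.

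Other genes of the same steps, 130 in all, moved in both directions about equally. Of 114 tested, 31 rose, 30 fell (26.3%) and 53 were not called, and their median log2 fold change was -0.03. Across all genes tested 20.6% were called higher and 21.4% lower. The 31 rises include SYTL5, SYNGR4 and SYT12, which passed the filter only through the IRF2BP2 shRNA group. Relatives with wide tissue expression, a list of 22 genes that lies within the 130, had 7 rises, 5 falls and 9 not called among 21 tested (median 0.09). SNAP23, the broadly expressed counterpart of SNAP25, rose 1.32-fold, and it shares exon bases with LRRC57 on the opposite strand. STX2 (log2 fold change -0.51) and STX3 (-1.39), plasma membrane syntaxins found beyond neurons, fell. TXLNA (0.48), a syntaxin binder, and NAPG (0.55), a SNAP adaptor, rose.

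Among other RAB effectors 7 of 20 tested genes fell (35%, against 21.4% of all genes tested) and 1 rose. SYTL4, or granuphilin, which docks granules through RAB27 and syntaxin, fell 8.55-fold (log2 fold change -3.10, adjusted p = 1.23e-09). RAB27B (-2.01), the granule GTPase itself, and EXPH5 (-1.29), another RAB27 effector, also fell on the log2 scale. The gene called higher, SYTL5, had 19 counts in each IRF2BP2 shRNA library against 5 and 3 counts with scramble, and it passed the filter on low counts only through the IRF2BP2 shRNA group, where it was high. Of 12 other active zone genes 4 fell (33.3%, against the same 21.4%) and 4 rose, where 20.6% of all genes tested were called higher. The falls included RIMS4 (-0.65), TSPOAP1 (-1.33), which encodes the RIM-binding protein RIMBP1, and APBA1 (-1.12). GIT1 (0.46), TPRG1L (0.67) and LIN7B (1.46) rose. Other synaptotagmin-like genes had 5 rises and 2 falls (18.2%) among 11 tested, against 20.6% higher and 21.4% lower of all genes tested. SYT9 (1.83), a fast calcium sensor, SYT16 (0.96) and ESYT2 (0.26) were higher, and SYT3 (-1.44) and SYT14 (-0.40) were lower.

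The wider endocytic list rose more often than it fell, with 15 rises, 4 falls and 15 not called among 34 tested. The falls were 11.8% of those tested, against 21.4% of all genes tested, and 20.6% of all genes tested were called higher. SYNJ2, the broadly expressed relative of SYNJ1, rose 4.94-fold, and SH3GL1, endophilin A2, rose 1.94-fold. EPN1 (0.44), a clathrin adaptor, also rose. The falls included SNAP91 (AP180, log2 fold change -1.34), DNAJC6 (auxilin, -1.48) and AP2A2 (-0.62), a subunit of the AP2 adaptor. Other vesicle protein genes fell in 7 of 13 tested (53.8%, against the same 21.4%). Among them were SCAMP5 (-0.55), SCAMP1 (-0.37) and SLC18A3 (-1.23), the vesicular acetylcholine transporter, and VAT1 (0.29) rose. SYNGR4 was called higher too, on 39 and 40 counts in the IRF2BP2 shRNA libraries against 7 and 13 counts with scramble, and it passed the filter only through the IRF2BP2 shRNA group. No difference between the listed exocytosis genes and these other genes was tested.

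**Figure D4:**
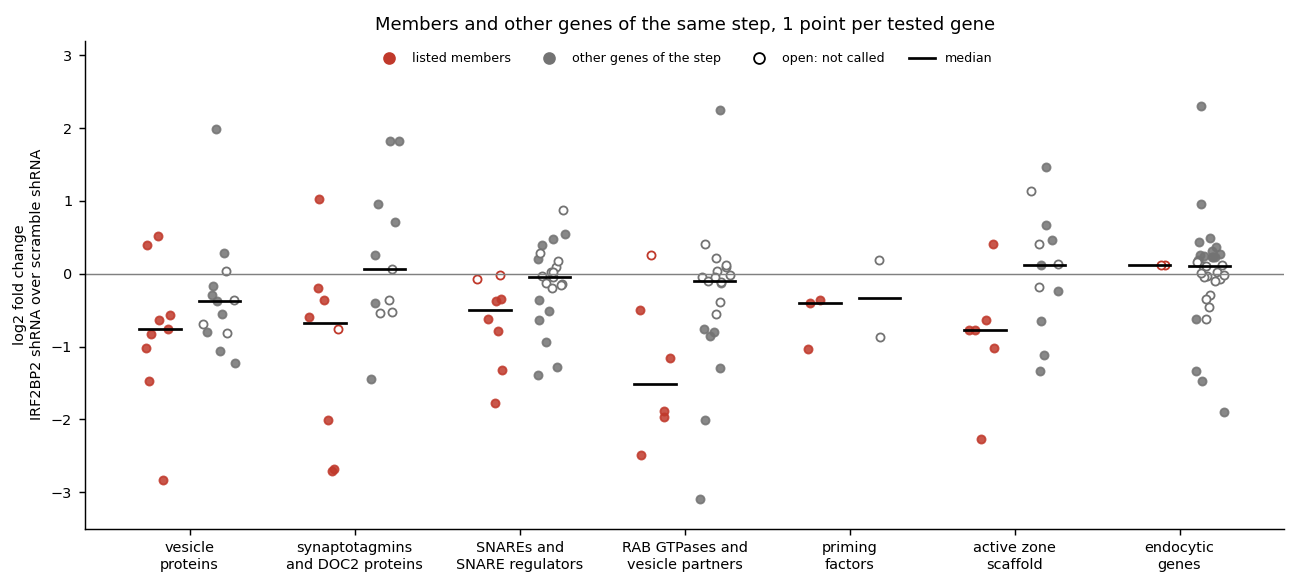
Log2 fold change, IRF2BP2 shRNA over scramble shRNA (y axis), for each tested gene of the 7 steps (x axis), with the listed exocytosis genes in red left of the other genes of that step in grey, open points for genes not called and a black line at each median. The listed genes have medians from -1.51 (RAB step) to 0.12 (endocytic step), and the other genes of the 2 steps have medians of -0.10 and 0.11.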

How the data were processed

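Raw counts per gene were used as deposited by the authors, 1 column per library, from TruSeq libraries of TRIzol RNA per the labels' protocols. Reads were aligned with HISAT2 2.2.0 to hg38, per the submitters' processing notes (for counter and annotation, not given in the sources used here). Strand is not marked by this kit.

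Genes were kept with filterByExpr (minimum count 10), scaled by TMM and tested with edgeR 4.0.16 in R 4.3.3 (robust quasi-likelihood F-test, two-sided, Benjamini-Hochberg over 19093 genes). Standard errors are the absolute log2 fold change over the square root of F. Symbols came from a table of gene names, exons and coordinates from GENCODE release 29 (GRCh38), and promoters from RefSeq. The procedure was tested on simulated counts. With 2 libraries per group an exact permutation test cannot go below p = 0.33, so none was run on single genes.

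The exocytosis genes and lists were chosen with earlier results of these data known. In each step the 3 largest changes in each direction, the gene with the highest level per length and any gene whose call moved were given per library. Other genes were named by smallest p, up to 3 per step and direction; 1 gene that this rule picks is not reported here. Alternatives were other scalings and filters, DESeq2 1.42.0, limma voom (limma 3.58.1), a fit without robust estimation, a 1.5-fold test, a replicate block, and leaving out each library. The replicate pairs differed by more than sampling noise (chi-square per degree of freedom 4.01 and 5.20).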

Additional observations from a re-analysis of the deposited data

How the results depend on the processing

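Counts of exocytosis genes held within 1.5 times in 12 of the 13 alternative settings, with 27 to 33 lower and 3 to 5 higher. Tested against a change of 1.5-fold, 17 exocytosis genes were lower and 1 higher, 9 other pathway genes were lower and 5 higher, and 1619 of all genes were called, 1074 lower and 545 higher; this test asks for a larger change by construction. Leaving out 1 library gave 29 to 31 exocytosis genes lower and 3 to 5 higher, and 6412 to 7477 genes called in all. Of the tested exocytosis genes only VAMP1, not called in any setting, changed sign: its log2 fold change was 0.0019 without IRF2BP2 shRNA replicate 1 and ran from -0.0936 to 0.0617 over the libraries left out, 0.0617 being without scramble replicate 2; the cause was not tested. With the replicate number as a block 32 exocytosis genes were lower and 4 higher, and 7902 genes were called in all; the labels name no shared batch, and the deviations of same-numbered libraries had a correlation of 0.06, so the numbers were not taken as pairs. Genes with under 100 counts per library, such as SYN3, SYNGR3, SYT5 and RPH3A, had the widest standard errors, from 0.29 to 0.40.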

Other observations

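Each synapsin gene holds a gene of the TIMP family, inhibitors of metalloproteinases, on its opposite strand. SYN1 and SYN3 share no exon with theirs in GENCODE release 29. For SYN2 this was not checked, since only partner genes with counts were compared. These genes were chosen after synapsin values were seen. TIMP3, inside SYN3, had 0.531 and 0.406 CPM in the IRF2BP2 shRNA libraries and 24.4 and 19.5 CPM in the scramble libraries (log2 fold change -5.54, edgeR adjusted p = 4.80e-09). SYN3 was lower too, though it entered the test only through the scramble group, where it was high. TIMP1, inside SYN1, had 45.8 and 45.2 CPM against 19.8 and 20.8 CPM with scramble (log2 fold change 1.16, edgeR adjusted p = 3.50e-07), while SYN1 was lower. TIMP4, inside SYN2, had no count in any library.

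REST, the repressor that binds the RE1 element, was named outside the rule for named genes. It had 51.0 and 48.9 CPM in the IRF2BP2 shRNA libraries and 27.0 and 24.1 CPM in the scramble libraries (log2 fold change 0.97, standard error 0.08, edgeR adjusted p = 2.15e-06). Its part in any change of the exocytosis genes was not tested.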
